A study of Homo sapiens with 4 samples.

Results

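CDK inhibitors and pocket proteins are the brakes of the step from G1 into S phase, and 10 of their genes were followed here among the 25066 genes measured. The genes were chosen with earlier results of these data known. They were taken by name, through the symbol each row of the expression table carries, with no threshold on a measured value. They were the CIP/KIP inhibitors CDKN1A, CDKN1B and CDKN1C, the INK4 inhibitors CDKN2A, CDKN2B, CDKN2C and CDKN2D, and the pocket proteins RB1, RBL1 and RBL2. All 10 were found and all 10 passed the filter on low values (a log2 value above 0 in 2 or more libraries), as did 16945 genes in all. CDKN1C and CDKN2B passed it on a handful of reads.

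Expression was measured by RNA sequencing in NUDUL1, a human line of diffuse large B cell lymphoma of the germinal center type. The cells were a single-cell clone with doxycycline-inducible Cas9, transduced with the thromboxane receptor gene Tbxa2r on a retrovirus marked by Thy1.1, and received either a control sgRNA or a GNA13 sgRNA, 1 guide per genotype. Both genotypes were treated with 10 nM U46619, an agonist of that receptor, for 24 h, with 2 libraries per genotype, so no untreated cells entered the comparison and the question was how the genotypes differed while the receptor was stimulated. The sources call the libraries duplicates and do not state separate cultures, so every p-value measures the spread between these libraries, which may be technical.

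INK4 proteins bind CDK4 and CDK6 and keep them from the D cyclins, whereas CIP/KIP proteins bind cyclin-CDK complexes, above all those of CDK2. When these kinases are active they phosphorylate the pocket proteins, which then let go of the E2F transcription factors that drive S phase genes. RB1 binds mainly the activating E2Fs, and RBL1 (p107) and RBL2 (p130) bind the repressive E2F4 and E2F5 and, with the MuvB core, form the DREAM complex that silences cell cycle genes in resting cells. In germinal center B cells, which divide fast, cyclin D3 is the main D cyclin, and CDKN2C is known for its part in the cell cycle exit of plasma cells.

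The libraries held 29209544 to 31537955 mapped reads by the totals deposited with the table. GNA13 mRNA was 12.46 and 12.45, in log2 normalized reads, in the control-labelled libraries and 13.10 and 13.11 in those labelled GNA13-deficient, so the targeted mRNA was more abundant under its own guide (difference 0.65, standard error 0.05, adjusted p = 0.00214 in limma). Directions are given by the labels throughout. All 6 B cell markers examined lay between 10.2 and 14.3, and the 4 germinal center markers, none of them at 0, summed to 18710 and 18646 reads in the control-labelled libraries and to 16740 and 15507 in the others. Among these, MME was 14.075 and 14.001 against 14.039 and 13.993, S1PR2 was 5.52 and 5.11 against 5.32 and 4.81, BCL6 was 10.75 and 10.89 against 8.23 and 8.44, and RGS13 was 3.61 and 3.68 against 1.62 and 0.11. Of 4 T cell markers, CD3D, CD3E and CD2 had no read in any library and the list summed to 5 reads in each library labelled control and to 0 in the others. Of 4 myeloid markers none was at 0 throughout, and they summed to 224 and 246 reads in the control-labelled libraries and to 27 and 25 in those labelled GNA13-deficient, while 4 fibroblast or epithelial markers, of which KRT18 had no read, summed to 46 and 50 against 103 and 105. The part of these marker changes in the results below was not tested. 

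Across the 10 genes, RBL1, CDKN2C and CDKN1B rose in GNA13-deficient-labelled libraries and none fell, by limma with a Benjamini-Hochberg adjusted p under 0.05. RBL1 was 1.94-fold higher, CDKN2C 1.64-fold and CDKN1B 1.24-fold, and the largest fitted fall, of CDKN2B, rested on fewer than 10 reads a library. Among all genes tested, 29.7% were called, 13.1% higher and 16.6% lower, so 3 calls among 10 genes is the background share and no result about the genes as a group. The median log2 difference was 0.28 over the 10 genes and -0.03 over all genes tested. Both libraries of a genotype lay on the same side of both libraries of the other for 8 of the 10 genes, and for 65.3% of all genes tested. As these are bulk libraries, more cells in a phase of the cycle in which a gene is on and more RNA per cell cannot be told apart.

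**Figure D1:**
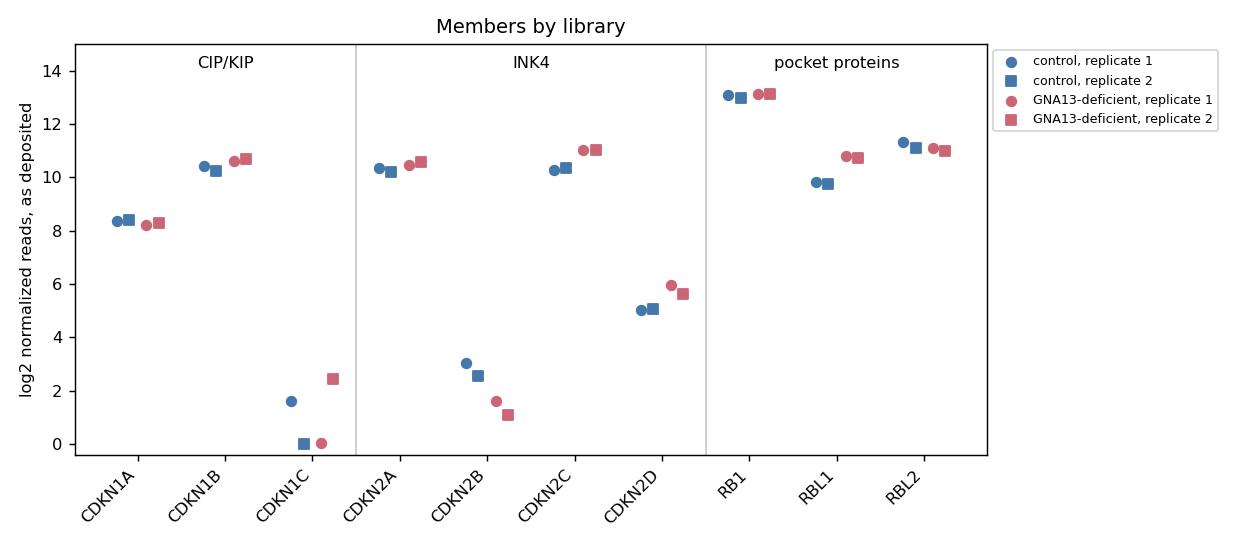
Deposited log2 normalized reads (y axis) of the 10 genes (x axis, grouped by family) in the 4 libraries, with colour for genotype and symbol shape for replicate. RBL1 and CDKN2C show the widest gaps between genotypes among well-covered genes, and CDKN1C and CDKN2B sit near the floor of 3 reads.

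RBL1 encodes p107, the pocket protein typical of cycling cells, and its gene rose the most of the 3 called. On the log2 scale it was 9.83 and 9.76 in the control-labelled libraries and 10.79 and 10.72 in those labelled GNA13-deficient, or 894, 881, 1720 and 1569 reads. The pairs of libraries lay far apart and each pair was tight. The difference was 0.96 (standard error 0.06, 95% interval 0.80 to 1.12, adjusted p = 0.00159 in limma), a 1.94-fold rise. In the 9 other settings that used all 4 libraries it lay between 0.91 and 1.17 and was called each time. The gene lies at chr20:35624752-35724400 on the minus strand of GRCh37, the assembly also called hg19.

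The other pocket proteins did not pass the test. RBL2, which encodes p130, the pocket protein typical of resting cells, was 11.31 and 11.09 in the control-labelled libraries and 11.11 and 10.99 in those labelled GNA13-deficient, and the genotypes overlapped. Its difference was -0.15 (standard error 0.10, 95% interval -0.40 to 0.10, adjusted p = 0.306). RB1, the retinoblastoma gene, was 13.07 and 12.99 in the control-labelled libraries and 13.11 and 13.14 in the others, which were higher by a margin smaller than the spread of the control pair. Its difference was 0.09 (standard error 0.06, 95% interval -0.06 to 0.25, adjusted p = 0.302), and its sign turned under quantile normalization (-0.05). The sign for RBL2 turned when each library was centred on its median (0.06).

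Set against each other, the pocket protein transcripts had another balance in each genotype. RBL1 made up 6.41% and 6.61% of pocket protein reads per kilobase in the control-labelled libraries, and 11.8% and 11.4% in those labelled GNA13-deficient. RBL2 made up 21.03% and 19.44% against 17.3% and 16.1%, and RB1 took most of the rest, 70.8% to 74.0% over the 4 libraries. The log2 ratio of RBL1 to RBL2 was -1.48 and -1.33 in the control-labelled libraries and -0.32 and -0.27 in the others, a rise of 1.11. With 2 libraries against 2 an exact two-sided permutation test cannot go below p = 0.333, the value it gave here. The ratio of RBL1 to RB1 differed by 0.86 with the same p.

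**Figure D2:**
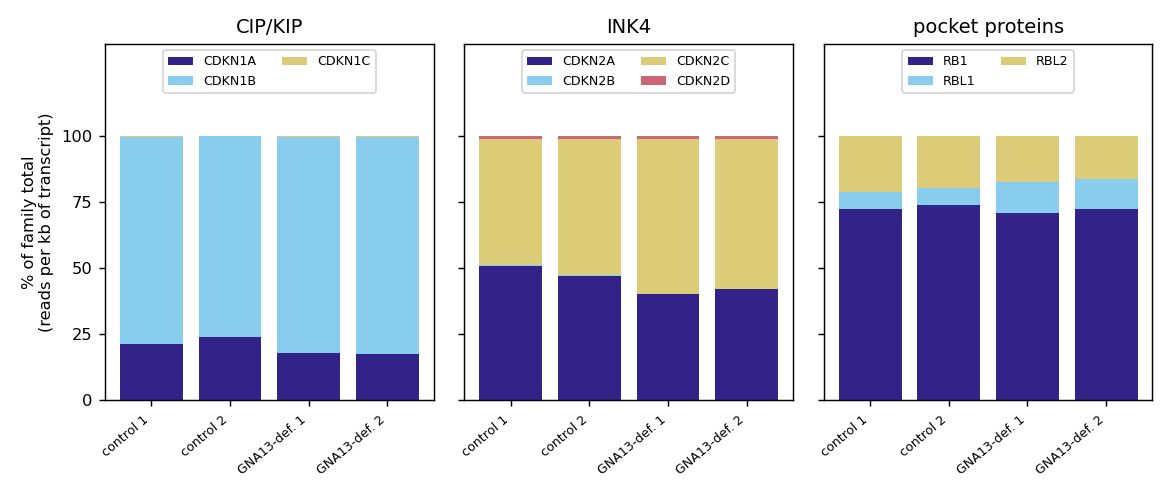
Share of reads per kilobase (y axis, percent) that each gene takes within the CIP/KIP inhibitors, the INK4 inhibitors and the pocket proteins, as a stacked bar for each of the 4 libraries. RBL1 widens from 6.41% and 6.61% to 11.8% and 11.4% of the pocket protein bar, and CDKN2C from 48.0% and 51.8% to 58.5% and 56.9% of the INK4 bar.

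The start regions of RBL1 and CDKN2C, whose calls held in every 4-library setting, are shown because both hold the letters of an E2F site, and RBL2 is shown as the closest relative of RBL1, whose window holds none. The sequences are RefSeq's, on build GRCh38.p14, each the 150 bases just before an annotated start, on the strand of the gene: RBL1 at chr20:37095998-37096147 (minus strand), CDKN2C at chr1:50968556-50968705 (plus strand) and RBL2 at chr16:53434321-53434470 (plus strand). The CDKN2C start is 1 of 3 in the table and the RBL2 start 1 of 2. The CDKN2C start was picked for its E2F letters, and the windows of its other starts hold none. By its distance from the gene's start, the canonical transcript used for levels below begins at the most downstream of the 3, not at the one shown. Capitals mark the E2F letters.
RBL1: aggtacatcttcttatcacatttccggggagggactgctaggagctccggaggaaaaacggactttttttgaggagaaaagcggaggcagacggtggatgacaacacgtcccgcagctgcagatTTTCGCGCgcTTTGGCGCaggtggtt
CDKN2C: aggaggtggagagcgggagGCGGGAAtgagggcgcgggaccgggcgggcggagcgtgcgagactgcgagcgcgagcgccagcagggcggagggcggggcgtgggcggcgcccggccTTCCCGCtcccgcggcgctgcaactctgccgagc
RBL2: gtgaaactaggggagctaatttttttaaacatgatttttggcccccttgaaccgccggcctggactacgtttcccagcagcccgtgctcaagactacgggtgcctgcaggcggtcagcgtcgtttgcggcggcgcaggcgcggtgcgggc

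An 8-letter E2F motif (TTTCCCGC, TTTCGCGC, TTTGCCGC or TTTGGCGC, on either strand) begins 26 and 16 bases before the RBL1 start, and 3.3% of the 35116 promoter windows in the table hold any such match. Its 7-letter form is the same letters without the first T, so that every 8-letter match holds one. It begins 131 and 34 bases before the CDKN2C start shown, the first on the opposite strand, and 13.0% of windows hold it. The table had 13 windows for 9 of the 10 genes, and none of the others held either form. The one RB1 window lies inside the gene rather than at its first exon. The cell cycle homology letters TTTGAA, found in 15.2% of windows, occur at an RBL2 start, 24 bases downstream, and the forkhead letters TGTTTAC, found in 3.4%, occur at no member's. The motifs were chosen after the expression values were seen, a match is a description of letters and not a bound site, and binding was not measured.

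CDKN2C encodes p18, an INK4 inhibitor of CDK6 and CDK4. Its log2 level was 10.28 and 10.35 in the control-labelled libraries and 11.04 and 11.03 in those labelled GNA13-deficient, from 1224, 1330, 2048 and 1940 reads. The replicates of each genotype lay close together and the genotypes did not overlap. The gene rose by 0.71 (standard error 0.06, 95% interval 0.57 to 0.86, adjusted p = 0.00222 in limma), and was called in all 9 other settings that used 4 libraries, with differences of 0.66 to 0.92. It lies at chr1:51426417-51440306 on the plus strand of GRCh37.

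CDKN2A, whose reads join the transcripts of p16 and of ARF, the activator of p53, was 10.35 and 10.20 in the control-labelled libraries and 10.47 and 10.57 in those labelled GNA13-deficient. The genotypes did not overlap, but the gap between them was smaller than the gap within the control pair. The difference of 0.25 (standard error 0.08, 95% interval 0.05 to 0.46) had an adjusted p of 0.0704, and passed only with the filter at the median level (0.0326) or with median centring (0.0133). CDKN2D, which encodes p19, a further inhibitor of CDK4 and CDK6, was 5.03 and 5.06 in the control-labelled libraries and 5.94 and 5.63 in the others, from 32 and 34 against 60 and 46 reads. Both libraries labelled GNA13-deficient were higher, by 0.74 (standard error 0.26, 95% interval 0.06 to 1.43, adjusted p = 0.0977), an interval that takes in both a negligible rise and one larger than that of RBL1. It passed under quantile normalization (1.18) and median centring (0.95).

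CDKN2B, which encodes p15, the INK4 protein induced by TGF-β, had 8 and 6 reads in the control-labelled libraries and 3 and 2 in those labelled GNA13-deficient, or 3.02, 2.56, 1.62 and 1.10 on the log2 scale. Both of the latter were at or under the floor of 3 reads. The summed reads gave a ratio of 0.36 after scaling (exact 95% interval 0.10 to 1.06, counting error only), the adjusted p in limma was 0.0617, and a fall was not established at this depth. The coding sequences of CDKN2A and CDKN2B are close, with 86.7% identity over 361 bases of their transcripts, and how reads that match both were counted is not stated, which leaves the few CDKN2B reads uncertain.

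The genes around CDKN2A and CDKN2B on chromosome 9, where CDKN2A lies at chr9:21967751-21995300 and CDKN2B at chr9:22002902-22009304 of GRCh37, did not pass the test either. MTAP, a purine salvage enzyme whose gene is often deleted together with the INK4 genes, was 11.64 and 11.56 against 11.46 and 11.45 (difference -0.15, adjusted p = 0.115). The antisense transcript CDKN2B-AS1 (ANRIL) was 6.25 and 6.17 against 6.32 and 6.08, so the genotypes overlapped. CDKN2A-AS1 was at 1.02 and 1.56 against 0 and 0.11, and DMRTA1 was listed above 0 in 1 library alone and was not tested. Transcripts of MTAP and CDKN2A were thus present in every library of this line.

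Within the INK4 family, CDKN2A and CDKN2C supplied nearly all transcripts per length. CDKN2C had 48.0% and 51.8% of INK4 reads per kilobase in the control-labelled libraries and 58.5% and 56.9% in the others, CDKN2A had 51.0% and 47.2% against 40.3% and 42.2%, and CDKN2D had 0.88% to 1.20% throughout. The shares of the leading pair did not overlap between genotypes and CDKN2A led CDKN2C in control library 1 alone. Which of the pair leads rests on the canonical transcript lengths, and transcript use was not measured.

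CDKN1B encodes p27, the CIP/KIP inhibitor of CDK2 that is high in resting lymphocytes and is destroyed through SKP2 in dividing cells. Its level was 10.44 and 10.25 in the control-labelled libraries and 10.61 and 10.70 in those labelled GNA13-deficient, from 1362, 1241, 1523 and 1549 reads. The genotypes were separated by about the width of the control pair. The rise of 0.31 (standard error 0.08, 95% interval 0.09 to 0.53) had an adjusted p of 0.0496 in limma, just under the threshold. It was called in 6 of the 9 other settings that used 4 libraries, and not without the filter (0.202), without the variance trend (0.156) or with voom on recovered reads (0.0847). The gene lies at chr12:12838432-12875303 on the plus strand of GRCh37. Together with CDKN1A it supplied nearly all CIP/KIP reads per kilobase, CDKN1B itself with 78.5% and 75.9% in the control-labelled libraries and 82.1% and 82.2% in the others.

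CDKN1A, which encodes p21, the CIP/KIP inhibitor induced by p53, was 8.37 and 8.41 in the control-labelled libraries and 8.22 and 8.27 in the others, which were both lower. The difference was -0.14 (standard error 0.09, 95% interval -0.39 to 0.10, adjusted p = 0.320), and it changed sign under quantile normalization (0.03) and median centring (0.06). CDKN1C, which encodes p57, the imprinted CIP/KIP inhibitor, had 3 and 0 reads in the control-labelled libraries and 1 and 5 in those labelled GNA13-deficient, so it lay around the floor of 3 reads and the genotypes overlapped. The 0 may stand for 1 read, which that library's table cannot tell from none. The ratio of its summed reads was 2.03 with an exact 95% interval of 0.43 to 12.5, and no difference was detectable at this depth.

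**Figure D3:**
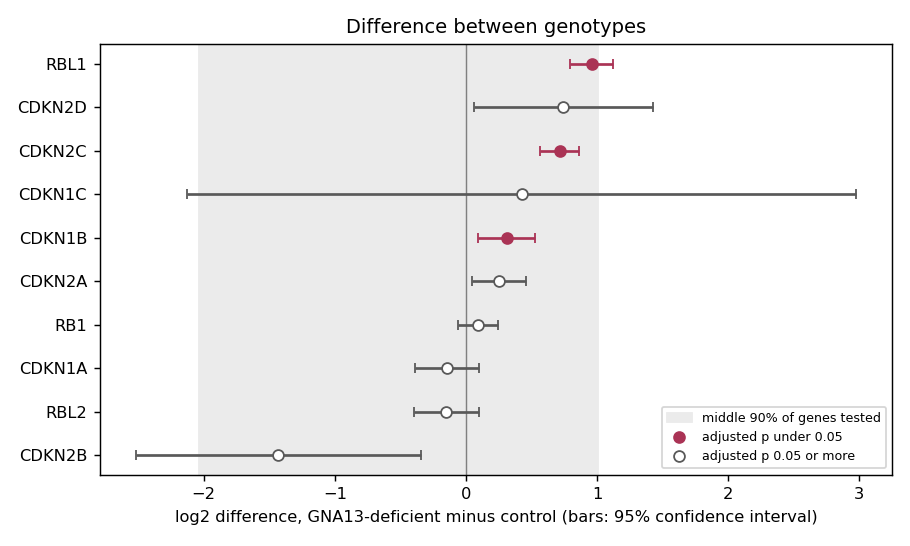
Log2 difference, GNA13-deficient minus control (x axis), of each of the 10 genes with its 95% interval from limma. Filled points have an adjusted p under 0.05, for RBL1, CDKN2C and CDKN1B, and the intervals of CDKN1C and CDKN2B span the widest range, with 0 to 8 reads a library.

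Levels between genes were compared as reads per kilobase of the canonical transcript per 1000000 mapped reads. In the control-labelled libraries the order of the means was RB1 (57.9), CDKN2C (42.2), CDKN2A (41.7), CDKN1B (17.8), RBL2 (16.05), CDKN1A (5.22), RBL1 (5.15), CDKN2D (0.763), CDKN2B (0.0602) and CDKN1C (0.0290). Within these libraries CDKN2C overlapped with CDKN2A, CDKN1B with RBL2, CDKN1A with RBL1 and CDKN2B with CDKN1C, and the other neighbours did not overlap. In the libraries labelled GNA13-deficient CDKN2C came first (67.0), above RB1 (59.7), and CDKN2A (47.9), CDKN1B (21.3), RBL2 (13.93), RBL1 (9.67), CDKN1A (4.56), CDKN2D (1.24), CDKN1C (0.0568) and CDKN2B (0.0217) followed. There, only CDKN1C and CDKN2B overlapped. CDKN2C thus lay below RB1 in both control-labelled libraries (42.1 and 42.4 against 60.9 and 55.0) and above it in both others (68.3 and 65.7 against 60.1 and 59.2), and RBL1, level with CDKN1A in the former, lay above it in the latter. With 2 libraries per genotype these orders are a description. All reads of a gene were divided by the length of its canonical transcript, 995 bases for CDKN2C and 4768 for RB1. Which transcripts the cells used was not measured, and CDKN2C has several annotated starts. Another length would change its level and its place in the order, and the same holds for shares within a family. RBL2 shares 609 bases (12.5%) of its canonical transcript with exons of AKTIP on the opposite strand, and 381 bases (7.8%) with another annotated gene there. RBL1 shares 213 bases (3.7%) with a noncoding gene on the opposite strand. The kit marks strand, but whether the counting used it is not stated, so those levels may hold reads of the overlapping genes.

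The counts over the related lists stand against 13.1% of all genes tested called higher and 16.6% lower, and no list was tested as a set. Over all lists together, with 83 distinct names of which not all were tested, 47 genes were called. Without the filter 23 were called, and without the variance trend 25. Over the whole table the calls in these settings, in the same order, were 5037 of 16945, 1999 of 25066 and 2718 of 16945 genes. The kinases and cyclins that the INK4 proteins act on differed in both directions. Of the 5 genes for D cyclins, CDK4 and CDK6, 2 rose, 1 fell and 2 did not pass, with a median difference of 0.61. CCND3, the D cyclin of germinal center B cells, rose from 13.02 and 13.15 to 14.32 and 14.45 (difference 1.30, adjusted p = 0.00157 in limma), CDK4 rose by 0.61 (adjusted p = 0.0135), and CDK6 fell from 12.41 and 12.57 to 11.77 and 11.62 (difference -0.80, adjusted p = 0.00435). CDK4 was not called without the filter or without the variance trend, and CDK6 not without the filter. The log2 ratio of CDKN2C to CDK6 was thus -2.12 and -2.22 in the control-labelled libraries and -0.73 and -0.59 in the others, a difference of 1.51, whereas its ratio to CCND3 was lower by 0.58 and its ratio to CDK4 overlapped between genotypes.

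The CIP/KIP proteins act on CDK2 and its cyclins. Of 5 tested genes for E and A cyclins, CDK2 and its activator, 4 rose and 1 did not pass, with a median difference of 0.74. CCNA2, the cyclin of S phase, rose by 1.08 (adjusted p = 0.00115), CDC25A, the phosphatase that activates CDK2, by 0.88 (adjusted p = 0.00129), and CDK2 from 11.59 and 11.66 to 12.31 and 12.41 (difference 0.74, adjusted p = 0.00253), all in limma. Relative to CDK2 mRNA, CDKN1B mRNA was lower in both libraries labelled GNA13-deficient (log2 ratio -1.70 and -1.71 against -1.15 and -1.40). This ratio, like the others given, is of mRNA, and these libraries do not measure protein.

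Of the 5 genes of the ubiquitin ligase that marks p27 for destruction, 2 rose and 3 did not pass, with a median of 0.20. SKP2, which recognizes phosphorylated p27, rose by 0.72 (adjusted p = 0.00332 in limma), and its cofactor CKS1B by 1.01 (adjusted p = 0.00495), a call that was lost without the filter. CDKN1B relative to SKP2 was -0.13 and -0.47 on the log2 scale in the control-labelled libraries and -0.77 and -0.66 in the others. The ratios named here, 8 with those above and that of CDKN1A to MDM2, were chosen after the values were seen, and all but CDKN2C to CDK4 (p = 0.667) gave the smallest exact permutation p that 2 against 2 libraries allow, 0.333 (0.381 adjusted over the 8 by Benjamini-Hochberg).

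E2F factors and the MuvB core are the partners of the pocket proteins. Among 10 E2F and DP genes, 5 rose, 2 fell and 3 did not pass, with a median of 0.30. The atypical repressor E2F7 rose by 0.89 (adjusted p = 0.00479), and the activators E2F2 by 0.78 (adjusted p = 0.00176) and E2F1 by 0.64 (adjusted p = 0.0021). Under median centring 7 rose and 1 fell, and the calls numbered 2 without the filter and 3 without the variance trend. Of 7 MuvB core genes and partners, 5 rose and 2 did not pass, with a median of 0.47: MYBL2 (B-MYB), which takes MuvB from repression to activation, rose by 1.14 (adjusted p = 0.00181), FOXM1 by 0.99 (adjusted p = 0.00158) and the core subunit LIN9 by 0.58 (adjusted p = 0.0149). The MuvB calls numbered 3 without the filter and 2 without the variance trend, LIN9 being lost in both.

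Pocket proteins repress with the help of chromatin enzymes. Of 6 genes whose products bind RB1 or repress with it, 3 rose and 3 did not pass, with a median of 0.23. The risen genes were SUV39H1, a histone H3 methyltransferase (1.05, adjusted p = 0.00151), RBBP7 (0.84, adjusted p = 0.0021) and RBBP8 (0.48, adjusted p = 0.0252, lost without the filter or the trend), all by limma. Of 7 Polycomb genes known to act at the INK4 locus, 4 rose and 3 did not pass, with a median of 0.21, and only 2 passed with quantile normalization or voom. EZH2, the methyltransferase of Polycomb complex PRC2, rose by 0.74 (adjusted p = 0.00387), SUZ12 by 0.46 (adjusted p = 0.0155) and BMI1 by 0.26 (adjusted p = 0.0478). The call of BMI1 was lost with quantile normalization (adjusted p = 0.0547 in limma) and with voom (0.1255).

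CDKN1A is a target of p53. Among 5 genes for p53 and its regulators, 1 rose, 2 fell and 2 did not pass, with a median of -0.22. ATM, the kinase of the double-strand break response, fell from 11.96 and 11.94 to 10.63 and 10.27 (difference -1.50, adjusted p = 0.00246 in limma), MDM2, the ligase and target of p53, fell by 0.77 (adjusted p = 0.00175), and CHEK2 rose by 0.40 (adjusted p = 0.0190). Of 19 tested p53 targets other than CDKN1A, 3 rose, 9 fell and 7 did not pass, with a median of -0.23, and 5 rose and 6 fell under median centring, where the median was -0.02. The pro-apoptotic BBC3 (PUMA) fell by 1.64 (adjusted p = 0.0220), SESN1, an inhibitor of mTORC1 signalling, by 1.61 (adjusted p = 0.00158), and GADD45A, a stress gene, by 1.59 (adjusted p = 0.0021). CDKN1A itself did not pass, and its log2 ratio to MDM2 was -4.31 and -4.28 in the control-labelled libraries and -3.73 and -3.61 in the others.

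Of the 3 FOXO genes, whose products induce CDKN1B in resting cells, 2 fell and 1 did not pass, with a median of -0.57. FOXO4 fell by 0.59 (adjusted p = 0.0149) and FOXO3 by 0.57 (adjusted p = 0.0235, lost under median centring, without the filter and without the trend). Among 4 other genes tied to CDK inhibition, 1 rose, 2 fell and 1 did not pass, with a median of -0.52. KLF2, a factor of quiescent lymphocytes, fell from 10.22 and 10.11 to 8.50 and 8.52 (difference -1.65, adjusted p = 0.000991), KLF6 fell by 1.02 (adjusted p = 0.0214), and CDKN3, a phosphatase that takes the activating phosphate off CDKs, rose by 1.16 (adjusted p = 0.00479), all by limma. KLF6 was lost without the filter or the trend. Calls of E2F7, ATM, EZH2 and CDKN3 were also lost without the filter, and those of CHEK2, BBC3, SUZ12 and BMI1 without the filter and without the trend. Standard errors of the list genes named with a p lay between 0.05 (E2F1) and 0.33 (BBC3), and for each of those called the genotypes did not overlap.

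**Figure D4:**
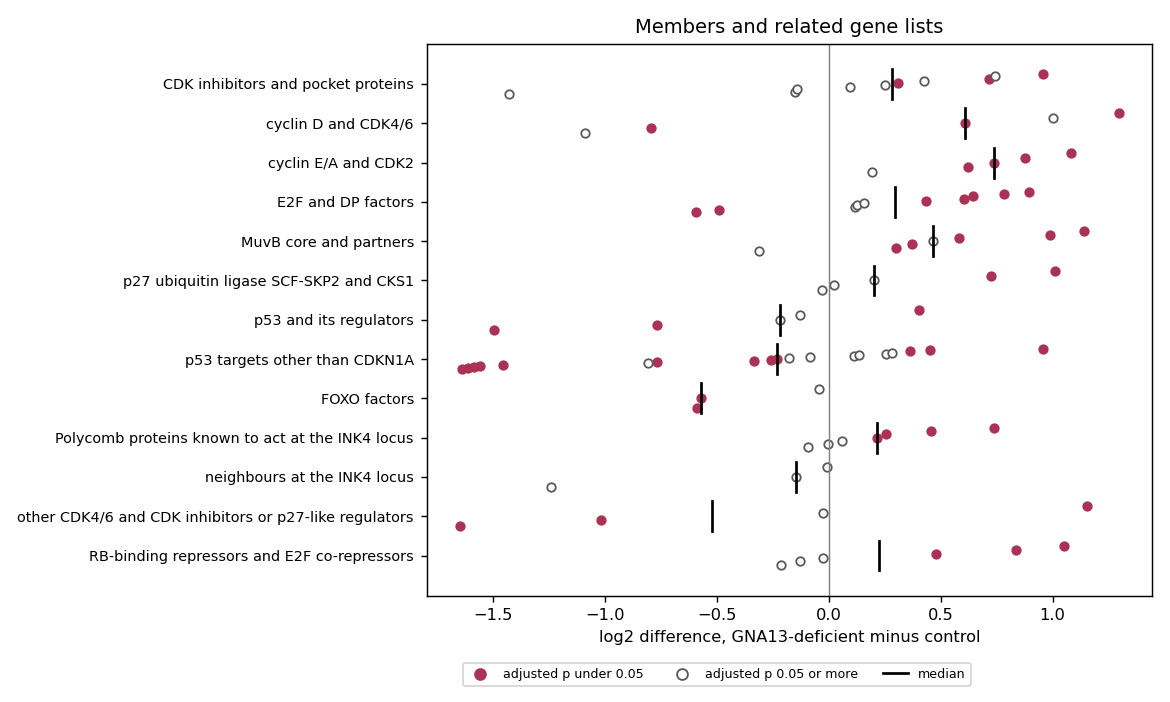
Log2 difference, GNA13-deficient minus control (x axis), of the 10 genes and of every tested gene of the 12 related lists (rows), with filled points for an adjusted p under 0.05 in limma and a bar at each median. The list of cyclins E and A with CDK2 has the highest median, 0.74, and the FOXO list the lowest, -0.57.

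Scaling between libraries bears on the small differences. Centring each library on its median moved the median of all genes from -0.03 to 0.18, raised the calls to 6235 and the share of them that were higher to 69.1%, against 44.03% of 5037 as deposited. With that shift, 6 of the 10 genes were called, CDKN2A, CDKN2D and RB1 in addition. Of all 16945 genes tested in that setting, 6235 were called, 4311 of them higher. Relative to the median of all genes, RBL1 stood at 0.98, CDKN2C at 0.74 and CDKN1B at 0.34. On the same footing CDKN1A and RBL2 stood at -0.12 and -0.13 and RB1 at 0.12. Centring shifts all genes of a library alike, so these values are the same on either scale by construction and are no test of scaling. With any 1 library left out, no gene of the whole table was called by limma, although 5257 to 5600 genes had an unadjusted p under 0.05. The difference was 0.92 to 0.99 for RBL1, 0.68 to 0.75 for CDKN2C and 0.22 to 0.40 for CDKN1B.

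**Figure D5:**
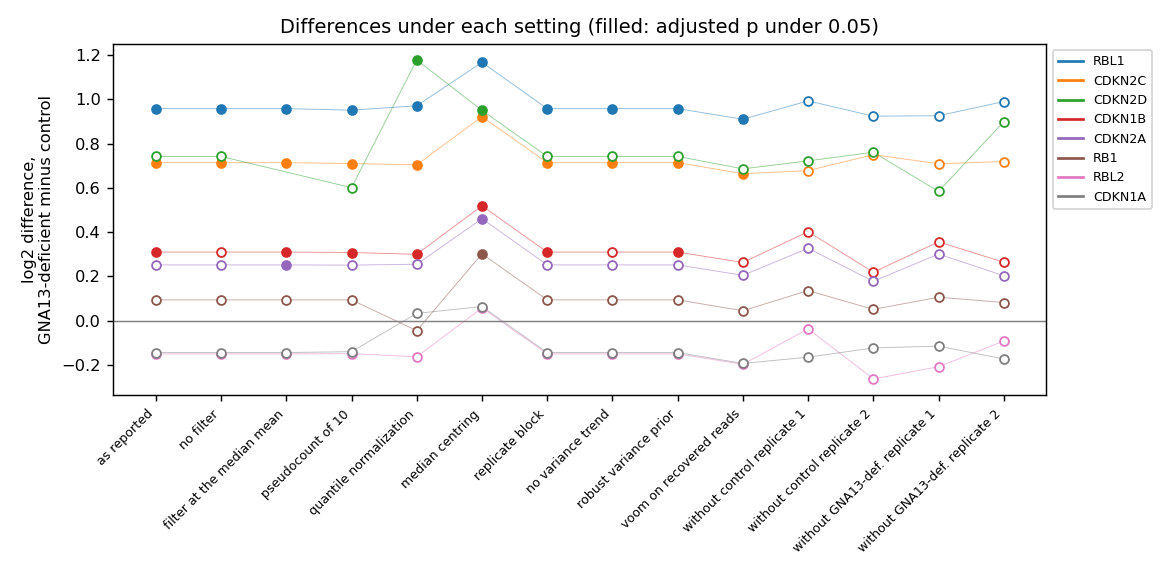
Log2 difference, GNA13-deficient minus control (y axis), of the 8 better-covered genes in each processing setting (x axis), with a thin line joining the values of a gene. RBL1 stays at 0.91 or above and CDKN2C at 0.66 or above, whereas CDKN1A, RBL2 and RB1 cross 0 in some settings.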

How the data were processed

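RNA from NUDUL1 cells was extracted with an RNeasy kit, made into poly(A) libraries with a stranded kit and sequenced in pairs, with read lengths that the paper's methods and the labels give differently. Reads were aligned to hg19 with STAR per the methods, and the submitters' processing notes name HTSeq. The authors normalized the reads and deposited them as log2 values per gene. The method of normalization, the annotation and the strand setting of the counting are not given in the sources used here. A first row of library totals, on the linear scale, was used for the depth alone.

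Log2 values were compared as deposited, with no pseudocount added, between the 2 libraries labelled GNA13-deficient and the 2 labelled control. A linear model with a variance prior that follows the mean level (limma 3.58.1, R 4.3.3) gave two-sided tests on the 16945 genes above 0 in at least 2 libraries. Benjamini-Hochberg adjustment ran over all genes tested, with a threshold of 0.05. Low values step by 1 read: all values at up to 400 reads came out whole within a relative tolerance of 0.000367. The recovered reads gave the depth behind a value, the floor of 3 reads, reads per kilobase and the input to voom. In control library 2 a single read falls below 0 on the log2 scale and is listed at 0. Intervals on reads cover counting error only. Canonical transcripts were those of GENCODE 44, lifted to GRCh37, and were compared with blastn 2.17.0.

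The 10 genes and the 12 related lists, written from general knowledge, were chosen with earlier results of these data known. Of 83 list names 79 matched by symbol, 3 by gene ID, and 1 did not match. The genes named were all 10 members, GNA13, up to 3 genes per list with the largest absolute difference among those called, and every listed neighbour at the INK4 locus. AKTIP and the cell type markers were named after their values were seen. Promoter windows came from RefSeq on GRCh38.p14, and their sequences and coordinates were not mixed with those of GRCh37. On simulated libraries with 200 genes changed 2-fold among 15921 tested, 60.0% of these were called and no unchanged gene was. The simulation drew independent replicates with a fixed spread and equal depth, and changed better-covered genes only. Its rates therefore do not carry over to the real libraries. Alternatives were other filters, a pseudocount of 10, quantile normalization, median centring, a replicate block, other variance priors, voom and leaving out each library in turn.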

Additional observations from a re-analysis of the deposited data

How the results depend on the processing

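With all 4 libraries, RBL1 and CDKN2C kept their direction and their call in 9 of 9 alternatives, and CDKN1B, CDKN2A, CDKN2B and CDKN2D kept their direction wherever they were tested. As reported above, 5037 of 16945 genes tested and 47 list genes were called. Without the filter 1999 of 25066 genes, 23 list genes and 2 members were called, and CDKN1B at 0.31 no longer passed. Without the variance trend 2718 of 16945 genes and 25 list genes were called, and CDKN1B at 0.31 was again lost. With voom on recovered reads CDKN1B was 0.26 and lost. With the filter at the median level CDKN2A at 0.25 passed, and CDKN1C, CDKN2B and CDKN2D were not tested. Under quantile normalization CDKN2D at 1.18 passed, and CDKN1A (0.033) and RB1 (-0.045) reversed. Under median centring, which shifts all genes alike, 6 members and 6235 of the 16945 genes tested were called. There CDKN2A (0.46), CDKN2D (0.95) and RB1 (0.30) passed, and CDKN1A (0.064) and RBL2 (0.058) reversed. A pseudocount of 10 and a robust prior changed no member's call.

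Leaving out each library in turn left 1 residual degree of freedom, with the lone library assumed to vary like the others. Limma then called 0 genes, 0 members and 0 list genes, with 5257 to 5600 genes and 2 to 4 members at an unadjusted p under 0.05. Differences ranged from 0.92 to 0.99 for RBL1, 0.68 to 0.75 for CDKN2C and 0.22 to 0.40 for CDKN1B, and CDKN1C, near the floor, from -0.77 to 1.62, reversed without control library 2 (-0.38) and without GNA13-deficient library 2 (-0.77).

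No source pairs the libraries by number. Deviations of same-numbered libraries from their genotype means had a correlation of 0.45 across 8473 genes, but 2 pairs are too few to take this as pairing. With the replicate number as a block 6616 of 16945 genes and 3 members were called. No member's call changed (RBL1 0.96, CDKN2C 0.71, CDKN1B 0.31). Depth limits CDKN1C and CDKN2B, which had 0 to 8 reads a library.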
